A study of Mus musculus with 12 samples.

Results

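AMPA receptors are the glutamate-gated ion channels that carry most fast excitatory transmission in the brain, and the genes described here encode their 4 pore-forming subunits and 5 auxiliary proteins: *Gria1*, *Gria2*, *Gria3*, *Gria4*, *Cacng2*, *Cacng3*, *Cacng8*, *Cnih2* and *Shisa9*. They were found by matching the Ensembl IDs of the expression table to these symbols in the GENCODE M21 annotation, which gave all 9 genes among the 26409 listed. The rule itself uses symbols and no measured value. Each receptor is a tetramer of GluA1 to GluA4. Auxiliary subunits bind that tetramer and set its trafficking, its anchoring at the synapse and its gating. The transmembrane AMPA receptor regulatory proteins (TARPs) are among them, with stargazin (*Cacng2*) as the founding member, as are the cornichons (*Cnih2*) and the Shisa family (*Shisa9*, also called CKAMP44). In the hippocampus GluA1 and GluA2 are the main subunits of excitatory neurons, and changes in receptor number at the synapse underlie long-term potentiation and depression.

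RNA of microdissected mouse hippocampus was measured in 12 libraries, with 3 libraries for each combination of sex (female or male) and genotype (WT or *Dek* cKO). DEK is a chromatin-associated protein. The cKO mice are constitutive knockouts, from a line kept by heterozygous matings, that carry a deletion of floxed *Dek* exons, made by crossing with a CMV-Cre line of C57Bl/6 mice. The Cre transgene, active in the whole body and in the germline, was later bred out of the line, so the deletion is constitutive and not limited to neurons. The mice had completed behavioral testing and were 6 to 12 months old at RNA analysis. The authors deposited TPM, a transcript abundance corrected for length and for library size. Levels can therefore be compared between genes, and the number of reads behind a value is not known. The labels do not give animal identifiers, and p-values therefore measure the spread between libraries.

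Some properties of the libraries touch the results. *Dek* itself was 48.3 ± 2.59 TPM in WT (SD, n = 6) and 7.23 ± 1.32 TPM in *Dek* cKO (SD, n = 6), with a log2 fold change of -2.74 and an adjusted p = 1.17e-08 in limma. The Y-linked genes went against the labeled sex in 2 libraries. *Eif2s3y* was 72.7 TPM in female cKO 3 and 0.111 TPM in male cKO 1, beside 72.4 to 92.0 TPM in the 3 male WT libraries. Results within a sex are therefore given with and without these 2 libraries. The 3 female WT libraries have C57 in their library names and the other 9 have CMV, so within females that naming and the genotype cannot be told apart. Among the WT libraries the naming cannot be told apart from sex. With both sexes together the C57 name occurs in 3 of 6 WT libraries and in no *Dek* cKO library. Naming and genotype thus overlap in part there as well. The difference between the sexes in the genotype effect carries the naming on its female side. Markers of excitatory neurons, CA1, CA3 and the dentate gyrus were all above 0 in each group. In bulk tissue, fewer cells of a type and less RNA per cell cannot be told apart.

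A single codon in the pore loop, the Q/R site, sets whether a receptor passes calcium, and the coding bases around it are shown for the 4 subunits for that reason. In GluA2 the adenosine of the codon is edited to inosine in nearly all neuronal transcripts by ADAR2 (*Adarb1*), so that arginine is made in place of glutamine, while the other subunits keep glutamine. Capitals mark the codon, and all 4 stretches lie within 1 exon of GRCm38.
Gria1: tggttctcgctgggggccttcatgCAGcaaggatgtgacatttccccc
Gria2: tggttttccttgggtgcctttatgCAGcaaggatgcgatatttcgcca
Gria3: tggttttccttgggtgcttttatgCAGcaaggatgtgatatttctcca
Gria4: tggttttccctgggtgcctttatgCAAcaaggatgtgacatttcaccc
The stretches come from chr11:57243070-57243117 on the plus strand, chr3:80706890-80706937 on the minus strand, chrX:41610241-41610288 on the plus strand and chr9:4464116-4464163 on the minus strand. They are in exon 11 of *Gria1*, *Gria2* and *Gria3* and in exon 12 of *Gria4*. Across the 48 bases, *Gria2* and *Gria3* each differed from *Gria1* at 9 positions and *Gria4* at 6. Counted from 1 at the first base shown, *Gria4* carries G27A inside the codon, which still encodes glutamine. TPM counts transcripts and does not show whether the *Gria2* codon was edited.

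The 3 TARPs share another short element, the end of the protein, through which they bind the PDZ domains of PSD-95 at the postsynaptic density. The last 10 coding codons are shown with the final 4 codons in capitals.
Cacng2: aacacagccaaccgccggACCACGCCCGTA
Cacng3: aatccggccaacagacgtACCACGCCTGTC
Cacng8: aacacgctcaacaggaaaACCACGCCCGTG
These bases lie in exon 4, at chr15:77995152-77995181 on the minus strand, chr7:122768814-122768843 on the plus strand and chr7:3415573-3415602 on the plus strand. Over the 30 bases *Cacng3* differed from *Cacng2* at 8 positions and *Cacng8* at 9. In the final 4 codons the differences from *Cacng2* were C27T and A30C in *Cacng3* and A30G in *Cacng8*, all at the third base of a codon, and the 4 encoded residues are the same in the 3 genes.

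Cornichon-2 and GluA1 transcripts were the most abundant of the 9. In WT hippocampus (n = 6, SD) *Cnih2* was at 430.2 ± 32.2 TPM, *Gria1* at 357 ± 26.1 TPM, *Gria2* at 242 ± 11.4 TPM and *Gria3* at 97.2 ± 4.26 TPM. The WT ranges of neighbors in this order did not overlap, and all 12 libraries kept it. *Cacng3* (32.2 ± 2.63 TPM), *Gria4* (31.7 ± 1.73 TPM), *Shisa9* (25.5 ± 2.52 TPM) and *Cacng2* (24.4 ± 1.64 TPM) followed, and among them neighbors overlapped. *Cacng3* was above *Gria4* in 8 of 12 libraries and *Shisa9* above *Cacng2* in 7 of 12. As shares of the summed subunit TPM in WT, *Gria1* made up 49.0%, *Gria2* 33.2%, *Gria3* 13.4% and *Gria4* 4.35%.

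The third TARP stood apart from the rest. *Cacng8*, which encodes TARP gamma-8 and is known as the TARP most characteristic of the hippocampus, is listed at 0 in all 12 libraries. *Cacng7*, another TARP gene close to it on chromosome 7, was detected, with a WT mean of 51.4 TPM. Of 20070 protein-coding genes in the table, 1919 (9.56%) are listed at 0 throughout. A value of 0 in a TPM table can also be a failed estimate, so no fold change, bound or test was given for *Cacng8*, and sums of TARPs below hold *Cacng2* and *Cacng3* alone. The other 8 members passed the filter of a mean of at least 0.1 TPM.

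**Figure D1:**
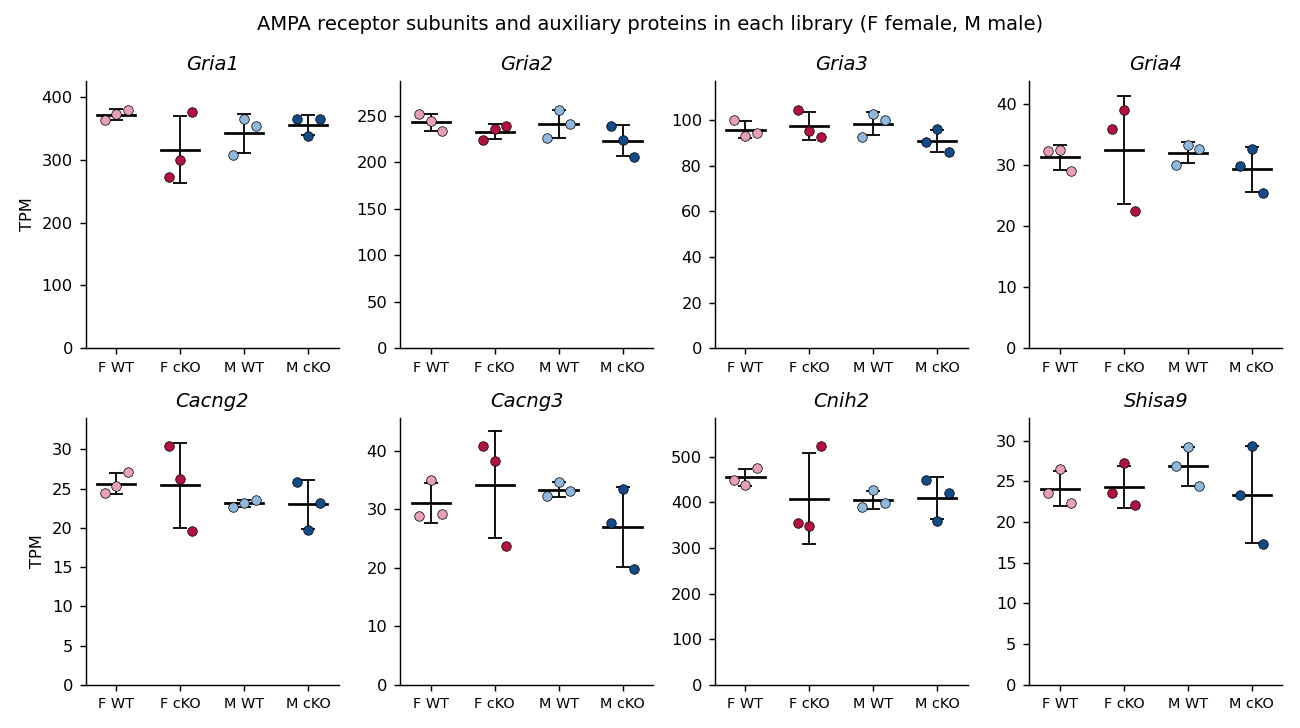
TPM (y axis, from 0) of the 8 detected members in each library, by group (x axis, F female and M male); points are libraries, horizontal lines group means and bars SD (n = 3). WT and *Dek* cKO libraries overlap for every gene, and female cKO 3 lies apart from the other female cKO libraries for *Gria1*, *Gria4*, *Cacng2*, *Cacng3* and *Cnih2*.

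The first question was whether loss of *Dek* changes the level of any of these transcripts. Values were compared as log2(TPM + 0.1) with limma over 18197 genes. A called gene had a fold change above 1.2 and a p below 0.05 after Benjamini-Hochberg adjustment. With both sexes together, 0 of the 8 tested members were called. Over all genes the same rule called 27, which is 0.148%. No member had an unadjusted p under 0.05 either, against 6.64% of all genes. No member had its 6 *Dek* cKO values all on one side of its 6 WT values, against 0.676% of all genes.

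Among the pore-forming subunits, *Gria1*, a subunit central to long-term potentiation, ranged from 307 to 380.2 TPM in WT with a median of 365 TPM. In *Dek* cKO it ranged from 273 to 377 TPM with a median of 351 TPM. The cKO range was the wider one and held most of the WT range. Its log2 fold change was -0.09 (SE 0.08, 95% confidence interval -0.27 to 0.08, adjusted p = 0.915).

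*Gria2*, which determines calcium permeability, had a lowest, median and highest value of 226, 242 and 256 TPM in WT. The corresponding values in *Dek* cKO were 206, 229.9 and 239 TPM. The groups overlapped between 226 and 239 TPM, with 4 WT libraries above that stretch and 3 *Dek* cKO libraries below it. The log2 fold change was -0.09 (SE 0.05, 95% confidence interval -0.19 to 0.01, unadjusted p = 0.081, adjusted p = 0.805 in limma). On the fold scale this interval runs from 0.879 to 1.01.

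*Gria3* encodes a subunit that pairs mainly with GluA2 and sits on the X chromosome. It ranged from 92.7 to 103 TPM (median 97.3) in WT and from 86.3 to 105 TPM (median 94.0) in *Dek* cKO, with a log2 fold change of -0.05 (95% confidence interval -0.15 to 0.06, adjusted p = 0.931). For *Gria2* and *Gria3* the whole interval lay within a 1.2-fold change in either direction. *Gria4*, the subunit typical of interneurons and of the young brain, ranged from 29.0 to 33.4 TPM (median 32.4) in WT and from 22.5 to 39.1 TPM (median 31.2) in *Dek* cKO. All WT values thus lay inside the cKO range, and the log2 fold change of -0.06 had a 95% confidence interval of -0.31 to 0.19 (adjusted p = 0.973).

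The auxiliary members gave the same outcome with less precision. *Cacng2* ranged from 22.7 to 27.1 TPM (median 24.0) in WT and from 19.7 to 30.4 TPM (median 24.6) in *Dek* cKO (log2 fold change -0.02, 95% confidence interval -0.24 to 0.19). *Cacng3*, TARP gamma-3, ranged from 28.9 to 34.9 TPM (median 32.7) in WT and from 19.8 to 40.7 TPM (median 30.5) in *Dek* cKO (log2 fold change -0.11, 95% confidence interval -0.44 to 0.21). For both TARPs every WT library lay inside the cKO range.

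*Cnih2*, which promotes export of receptors from the endoplasmic reticulum and slows their deactivation, ranged from 389.5 to 476 TPM (median 433) in WT and from 348 to 523 TPM (median 390.4) in *Dek* cKO. The WT libraries again lay inside the cKO range, and the log2 fold change was -0.08 (95% confidence interval -0.29 to 0.12). *Shisa9*, which promotes receptor desensitization, ranged from 22.3 to 29.2 TPM (median 25.4) in WT and from 17.4 to 29.3 TPM (median 23.5) in *Dek* cKO (log2 fold change -0.11, 95% confidence interval -0.35 to 0.13). Adjusted p-values of these 4 genes lay between 0.924 and 0.990 in limma.

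All 8 tested members had a negative estimate, with a median log2 fold change of -0.09. Over all 18197 genes the median was 0.02, and 55.8% of estimates were positive. Several members varied together over the libraries, as given further on, so the 8 signs are not independent. In absolute size the members' median was 0.09 on the log2 scale, as it was over all genes (0.09), and it was 0.07 over the 14160 genes averaging 1 TPM or more. The estimates of *Gria4*, *Cacng2* and *Cacng3* changed sign when particular libraries were left out. Without the 2 libraries of conflicting sex, *Gria4* was at 0.06 and *Cacng2* at 0.02, and again 0 of the 8 members were called (0.0659% of all genes). At an unadjusted p under 0.05 stood 2 of them, *Cnih2* at -0.22 and *Gria2* at -0.12, against 7.4% of all genes.

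**Figure D2:**
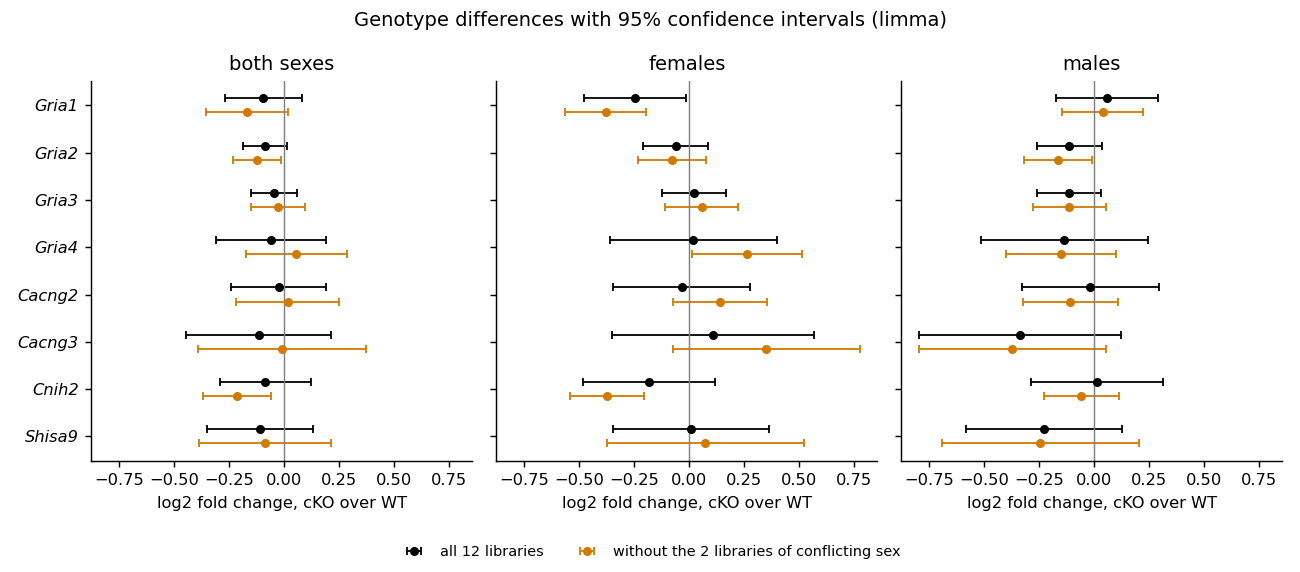
Log2 fold change of *Dek* cKO over WT (x axis) for the 8 tested members (y axis), with 95% confidence intervals from limma, in both sexes, females and males; black uses all 12 libraries, orange leaves out the 2 libraries whose Y-linked genes go against the label. With all libraries only *Gria1* in females has an interval that excludes 0 (-0.48 to -0.02), and its adjusted p is 0.845.

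The spread between libraries was larger in *Dek* cKO than in WT, as a description with no test. On the log2 scale the SD of the 6 *Dek* cKO libraries was larger than that of the 6 WT libraries for 8 of 8 members, with a median ratio of 2.01. For *Gria4* the SD was 0.30 in *Dek* cKO and 0.08 in WT, for *Cacng3* 0.40 and 0.12, and for *Cnih2* 0.23 and 0.11. *Gria2* had the smallest ratio, with SDs of 0.08 and 0.07. It was common across the transcriptome, since 67.1% of all tested genes, and 75.2% of the 8982 genes averaging 10 TPM or more, had a larger SD in *Dek* cKO (median ratio 1.43 for the latter).

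The members differed among themselves in how much they varied within groups. The pooled SD within the 4 groups was 0.08 for *Gria2* and *Gria3*, at percentiles 16.5 and 14.1 of the same 8982 genes. For *Cacng3* it was 0.30, at percentile 93.9, and for *Gria4* 0.24, at percentile 89.5. The median of those genes was 0.12. *Gria1* (0.14) was close to it, and *Cnih2* (0.19), *Cacng2* (0.19) and *Shisa9* (0.22) were above it.

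The subunit makeup was compared next, because the ratio of GluA1 to GluA2 and the supply of TARPs per subunit bear on receptor type. The summed TPM of the 4 subunits was 728 ± 37.0 in WT and 689 ± 34.9 in *Dek* cKO (SD, n = 6 each). *Gria1* held 49.0 ± 1.64% of it in WT and 48.7 ± 4.10% in *Dek* cKO, *Gria2* 33.2 ± 0.958% and 33.1 ± 1.89%, *Gria3* 13.4 ± 0.592% and 13.74 ± 1.496%, and *Gria4* 4.35 ± 0.226% and 4.52 ± 1.09%. The log2 ratio of *Gria1* to *Gria2* was 0.56 ± 0.09 in WT and 0.55 ± 0.20 in *Dek* cKO, and that of summed TARPs to summed subunits was -3.69 ± 0.08 and -3.68 ± 0.35. In a two-sided exact permutation test over the 924 arrangements of the libraries, p-values of the 6 measures ran from 0.66 to 0.95, and all 6 adjusted values were 0.95. The makeup was thus not distinguishable between the genotypes when the sexes were pooled.

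Within the sexes the picture was less even. In females (n = 3 against 3), *Gria1* was 363, 373 and 380.2 TPM in WT libraries 1 to 3, and 273, 300.1 and 377 TPM in *Dek* cKO libraries 1 to 3. Female cKO 1 and 2 thus lay below every WT library, while female cKO 3 lay among them. Its log2 fold change was -0.25 (95% confidence interval -0.48 to -0.02, unadjusted p = 0.039, adjusted p = 0.845 in limma), so the gene was not called. *Cnih2* was also lower in the first 2 of these libraries, and highest in the third, with 449.6, 439 and 476 TPM in female WT and 355, 348 and 523 TPM in female *Dek* cKO (log2 fold change -0.18, adjusted p = 0.918 in limma).

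*Gria4* and *Cacng3* showed the opposite arrangement in the same libraries. *Gria4* was 32.4, 32.4 and 29.0 TPM in female WT and 36.0, 39.1 and 22.5 TPM in female *Dek* cKO. *Cacng3* was 28.9, 34.9 and 29.2 TPM in female WT and 40.7, 38.2 and 23.7 TPM in female *Dek* cKO. For both genes female cKO 1 and 2 were above every female WT library and female cKO 3 below every one. Over the 8 members 0 were called in females (0.0165% of all genes), and 1, *Gria1*, had an unadjusted p under 0.05 (5.79% of all genes).

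In males *Gria1* was 307, 366 and 355 TPM in WT and 365, 338 and 365 TPM in *Dek* cKO, so that WT 1 was the low library (log2 fold change 0.06, adjusted p = 0.969 in limma). *Gria2* was 226, 256 and 241 TPM in male WT and 239, 224 and 206 TPM in male *Dek* cKO. *Cacng3* was 32.3, 34.7 and 33.1 TPM in male WT and 27.7, 33.3 and 19.8 TPM in male *Dek* cKO, the largest estimate among the members (log2 fold change -0.34, 95% confidence interval -0.80 to 0.12, adjusted p = 0.892 in limma). Its lowest value came from male cKO 3, which also had the lowest *Gria2*, *Gria3* and *Shisa9* of all 12 libraries, at 206, 86.3 and 17.4 TPM. That library was unusual beyond these genes, with *Gfap*, the astrocyte filament gene, at 1267 TPM against a highest value of 437 TPM elsewhere. The astrocyte gene *Gja1* was at its lowest there, at 68.6 TPM against 116 to 151 TPM. The part of this library's state in these differences was not tested. Without it the log2 fold change of *Cacng3* in males was -0.13 and that of *Shisa9* moved from -0.23 to -0.03. In males 0 of 8 members were called (0.0165% of all genes), and 0 had an unadjusted p under 0.05 in limma (5.45% of all genes).

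The difference between the sexes in the genotype effect was tested directly. As the male minus the female log2 fold change, *Gria1* gave 0.30 (95% confidence interval -0.02 to 0.63, unadjusted p = 0.065), *Cnih2* 0.19 and *Cacng3* -0.44 (95% confidence interval -1.09 to 0.21). None of the 8 members was called in limma, with adjusted p-values of 0.966 or higher, and none had an unadjusted p under 0.05. Over all genes 0% were called and 4.23% had an unadjusted p under 0.05. WT males and WT females also differ in library naming (CMV against C57), so sex and naming cannot be told apart in their comparison. Between WT males and WT females none of the 8 members was called, and the estimates ran from -0.17 for *Cnih2* to 0.15 for *Shisa9*. Over all genes limma called 0% there, with 3.63% at an unadjusted p under 0.05 and none of the 8 members among them. Even *Eif2s3y* was not called, at 72.4 to 92.0 TPM in male WT and 0.209 to 0.993 TPM in female WT. The spread in this fit is shared by all 4 groups and includes the 2 libraries of conflicting sex. Without them 4 genes and 0 of the 8 members were called. *Cnih2* was then among 869 of 18197 genes at an unadjusted p under 0.05 in limma.

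When the 2 libraries of conflicting sex were left out, the 8 estimates within females were all farther from 0, with *Cacng2* on the other side of it. *Gria1* was then at -0.38 (95% confidence interval -0.56 to -0.19, adjusted p = 0.176 in limma), *Cnih2* at -0.37 (95% confidence interval -0.54 to -0.20, adjusted p = 0.150) and *Gria4* at 0.26 (95% confidence interval 0.01 to 0.52, adjusted p = 0.547). Still limma called 0 of 8 members in females or in males, with 0.033% of all genes called in each. These 3 members in females and *Gria2* in males (log2 fold change -0.16, adjusted p = 0.546) had an unadjusted p under 0.05, against 8.69% of all genes in females and 9.03% in males. For the difference between the sexes, 0.0165% of all genes and 0 of 8 members were called. There *Gria1* (0.42, adjusted p = 0.350), *Cnih2* (0.31, adjusted p = 0.444), *Gria4* (-0.42, adjusted p = 0.512) and *Cacng3* (-0.72, adjusted p = 0.496) had an unadjusted p under 0.05 in limma, against 8.83% of all genes. These values set 2 *Dek* cKO libraries against 3 WT libraries in each sex.

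Ratios within a library cancel shifts that all subunits share, and the makeup was followed by sex in the same way. The log2 ratio of *Gria1* to *Gria2* was 0.53, 0.61 and 0.70 in female WT and 0.28, 0.35 and 0.66 in female *Dek* cKO. In males it was 0.45, 0.51 and 0.56 in WT and 0.61, 0.59 and 0.83 in *Dek* cKO. All 3 male cKO libraries were above all 3 male WT libraries, whereas in females 2 of 3 cKO libraries were below all WT libraries. The cKO minus WT difference was -0.19 in females (exact permutation p = 0.3) and 0.17 in males (exact permutation p = 0.1, the smallest that 3 against 3 libraries can give).

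The *Gria1* share moved likewise, from 50.1 ± 1.48% in WT to 46.4 ± 4.59% in *Dek* cKO in females, and from 47.9 ± 0.966% to 50.9 ± 2.30% in males (SD, n = 3 each). *Gria2* shares went the other way, from 32.7% to 34.3% in females and from 33.8% to 31.9% in males. A two-sided exact test of the difference between the sexes, in which genotype labels were permuted within each sex (400 arrangements), was added after these values were seen. This permutation test gave 0.36 for the log2 ratio (p = 0.04), 6.76 percentage points for the *Gria1* share (p = 0.055) and -3.51 percentage points for the *Gria2* share (p = 0.035). Adjusted over the 6 measures, the smallest exact permutation p was 0.0825, so none passed 0.05.

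Without the 2 libraries of conflicting sex the same exact permutation test (100 arrangements) passed 0.05 for all 6 measures, with adjusted p-values from 0.02 to 0.04. The log2 ratio of *Gria1* to *Gria2* then differed between the sexes by 0.50 and the log2 ratio of summed TARPs to subunits by -0.63. Leaving out male cKO 1 alone gave adjusted exact permutation p-values of 0.13 or higher. Of the libraries left out 1 at a time, only female cKO 3 took any measure past 0.05. Leaving it out took all 6 past (adjusted exact permutation p from 0.01 to 0.02), with a difference of 0.47 in the log2 ratio of *Gria1* to *Gria2*. The female side of this difference then rests on female cKO 1 and 2, whose marker values stand out as described further on. It also sets CMV-named against C57-named libraries, so naming and genotype cannot be told apart in it.

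**Figure D3:**
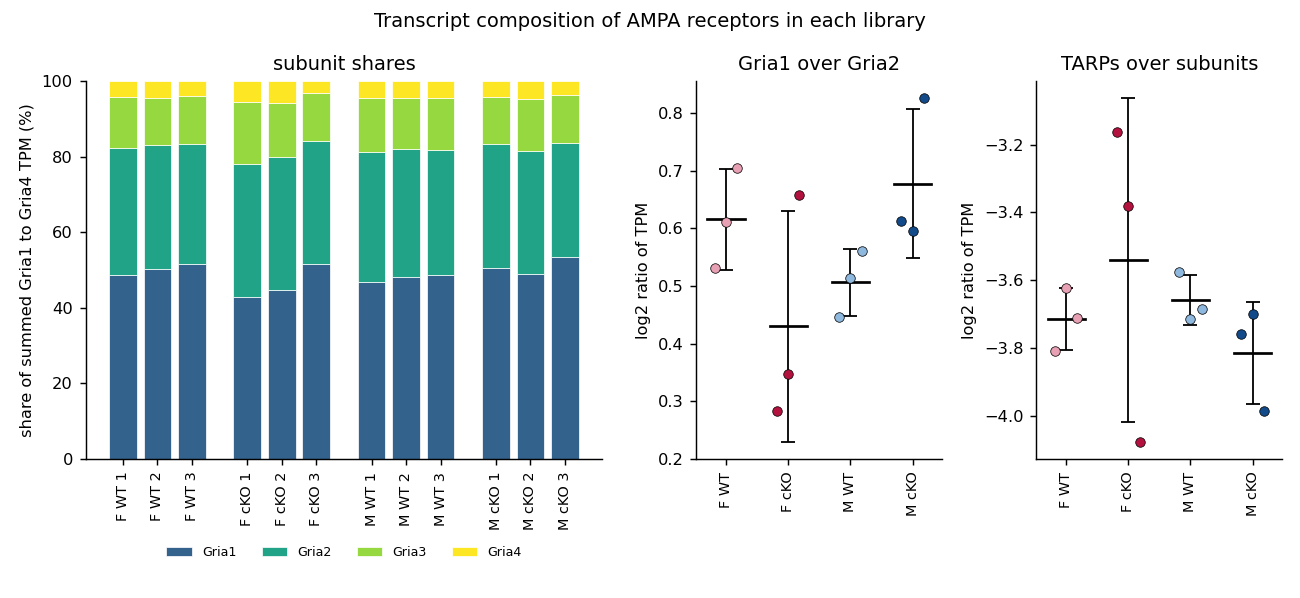
Left, share of each subunit in the summed TPM of *Gria1* to *Gria4* (y axis, percent) in each of the 12 libraries (x axis); middle and right, log2 ratios (y axis) of *Gria1* to *Gria2* and of *Cacng2* plus *Cacng3* to the summed subunits by group, with points for libraries, lines for means and bars for SD (n = 3). Female cKO 1 and 2 have the lowest *Gria1* to *Gria2* ratios (0.28 and 0.35) and male cKO 3 the highest (0.83).

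Over the 12 libraries the members fell into sets that varied together. *Gria1* and *Cnih2* varied in step (Pearson's r = 0.82 on the log2 scale, 0.87 after group means were removed). *Gria4* and *Cacng3* did so as well (r = 0.88 and 0.90), and *Shisa9* went with *Cacng3* (r = 0.78 and 0.79). *Gria4* ran against *Cnih2* (r = -0.76 and -0.87). *Gria2* had r between 0.02 and 0.52 with the other 7 members, the highest with *Shisa9*. These are descriptions over libraries that share a depth scaling and a dissection.

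**Figure D4:**
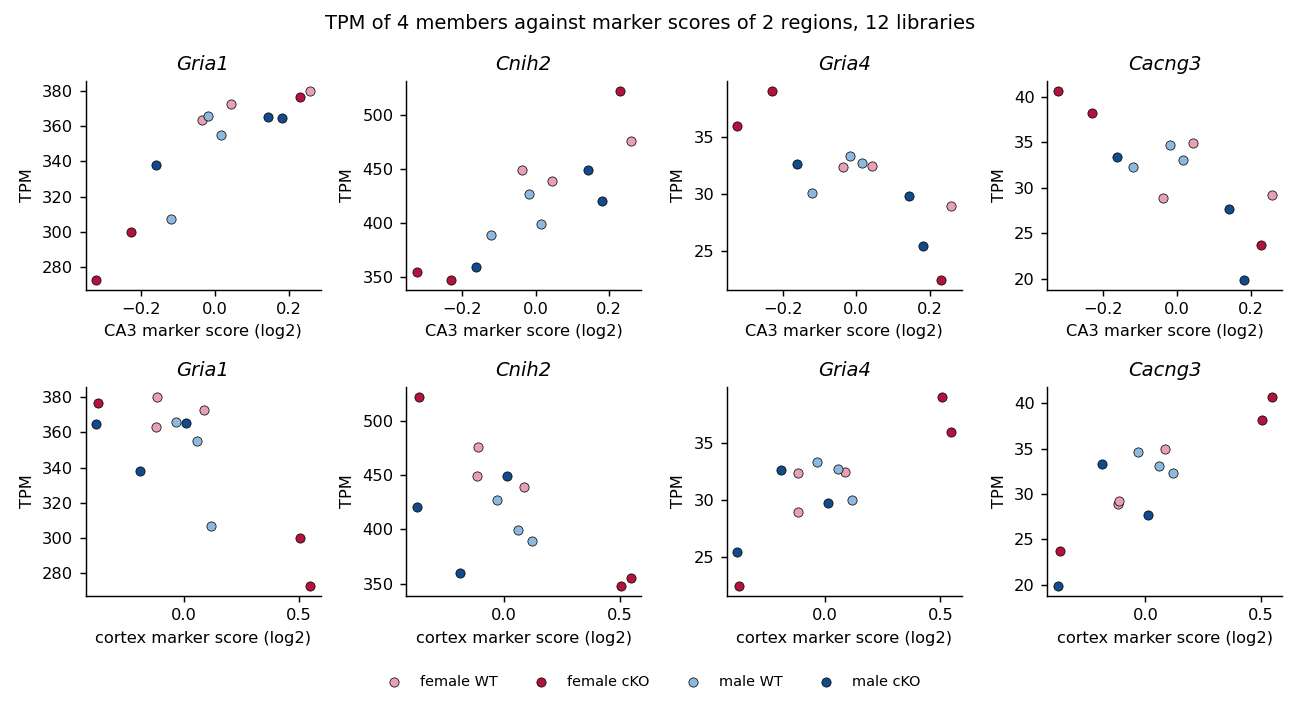
TPM (y axis) of *Gria1*, *Cnih2*, *Gria4* and *Cacng3* in the 12 libraries against the CA3 marker score (top row) and the cortex marker score (bottom row), each the median log2 value of 5 marker genes relative to the median library (x axis). *Gria1* and *Cnih2* are higher and *Gria4* and *Cacng3* lower where the CA3 score is higher, and female cKO 1 and 2 lie alone at cortex scores of 0.55 and 0.51.

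Markers of hippocampal fields and of neighboring tissue moved with these sets. The 8 tested members were compared with 16 marker lists, 128 relations in all, each with 100000 permutations of the 12 libraries. The score of 5 CA3 markers, which were all detected in each group, was correlated with *Gria1* (r = 0.88, permutation p = 6e-05, adjusted p = 0.00768, Spearman's rho = 0.90, permutation p = 0.00025). It was also correlated with *Cnih2* (r = 0.88, permutation p = 0.00027, adjusted p = 0.0115, rho = 0.83, permutation p = 0.00178). *Gria4* and *Cacng3* were correlated with it negatively (r = -0.80 and -0.78, permutation p = 0.00122 and 0.00188, adjusted p = 0.0312 and 0.0344). Spearman's rho was -0.81 for *Gria4* (permutation p = 0.00202) and -0.72 for *Cacng3* (permutation p = 0.0102, adjusted p = 0.118). Without the 2 libraries farthest from the median score, r was 0.81 for *Gria1*, 0.85 for *Cnih2*, -0.83 for *Gria4* and -0.79 for *Cacng3*.

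Within the 6 WT libraries the r with the CA3 score was 0.72 for *Gria1* and 0.77 for *Cnih2*, and within the 6 *Dek* cKO libraries 0.94 and 0.91. For *Gria4* and *Cacng3* it was -0.47 and -0.35 within WT, and -0.91 and -0.94 within *Dek* cKO. Within the 9 libraries named CMV all 4 values had the same sign as in the 12. Summed CA3 marker TPM spanned 179 to 232 in WT and 155 to 243 in *Dek* cKO. The CA3 markers did not all move together. In male cKO 3 the markers *Bok* and *Grik4* were the highest of the 12 libraries, at 73.35 and 49.5 TPM. The marker *Npy2r* was the lowest there, at 13.7 TPM. *Grik4* is also among the kainate receptor genes described below.

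The 5 cortex markers were also all detected, and their median score was highest in female cKO 1 and 2, at 0.55 and 0.51 against at most 0.12 in the other 10 libraries. Of the 5 genes, *Tbr1* and *Cux2* were highest in both of these libraries, whereas *Foxp2* and *Fezf2* had their highest value in a WT library. The thalamus and habenula score was highest in the same libraries, at 0.70 and 0.56, and their CA3 scores of -0.32 and -0.23 were the lowest of all. Of the thalamus and habenula genes, *Slc17a6*, *Tnnt1* and *Rora* were highest in both female cKO 1 and 2. *Prkcd* was 21.2 and 27.0 TPM in them and had its highest value, 37.4 TPM, in female cKO 3. Summed cortex marker TPM spanned 75.0 to 91.3 in WT and 65.7 to 129 in *Dek* cKO. With the cortex score *Cacng3* had r = 0.84 (permutation p = 0.00092, adjusted p = 0.0294, rho = 0.76, permutation p = 0.00564), and 0.80 without female cKO 1 and 2. *Gria1* had r = -0.80 (permutation p = 0.0023, adjusted p = 0.0368, rho = -0.55, permutation p = 0.0718) and -0.38 without them, with -0.62 within the 6 WT libraries and -0.91 within the 6 *Dek* cKO libraries. *Gria4* had r = 0.82 (permutation p = 0.00169, adjusted p = 0.0344, rho = 0.68, permutation p = 0.0183), with 0.73 without them, but 0.13 within the 6 WT libraries and 0.88 within the 6 *Dek* cKO libraries. The part of these tissue markers in the sex-dependent values above was not tested.

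*Gria4* was also correlated negatively with the score of 5 astrocyte markers (r = -0.88, permutation p = 0.0002, adjusted p = 0.0115, rho = -0.89, permutation p = 0.00023), and within WT r was -0.90 and within *Dek* cKO -0.95. For *Cacng3* r with the astrocyte score was -0.78 (permutation p = 0.00301, adjusted p = 0.0385, rho = -0.72, permutation p = 0.0111), with -0.60 within WT and -0.89 within *Dek* cKO. The 5 markers did not all move together. *Aldh1l1* was 38.4, 29.1 and 22.5 TPM in female cKO 1 to 3, the same direction as *Gria4* there. *Gfap*, *Aqp4*, *Slc1a3* and *Gja1* were lower in female cKO 1 and 2 than in female cKO 3. Summed astrocyte marker TPM spanned 687 to 771 in WT and 652 to 1700 in *Dek* cKO, and without *Gfap* 476 to 496 in WT and 424 to 523 in *Dek* cKO. Correlations of *Gria4* and *Cacng3* with the CA1 score (r = 0.77 and 0.76, permutation p = 0.00301 and 0.00446, adjusted p = 0.0385 and 0.0476, rho = 0.82 and 0.84, permutation p = 0.00187 and 0.00114) had r = 0.36 and 0.46 without female cKO 3 and male cKO 3. Within the 6 WT libraries r was 0.81 for both genes, and within the 6 *Dek* cKO libraries 0.83 and 0.78. *Shisa9* was correlated negatively with the excitatory neuron markers (r = -0.82, permutation p = 0.00335, adjusted p = 0.039, rho = -0.92, permutation p = 8e-05), with -0.79 within WT and -0.93 within *Dek* cKO. The relations of *Gria2*, *Gria3* and *Cacng2* with any list did not reach an adjusted p of 0.05 by Pearson's r.

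By a fixed rule the 3 genes most like the mean centered log2 profile of the 8 members were *Trmt9b* (r = 0.94), *Gm10434* (r = 0.94) and *Cpeb4* (r = 0.93) among 14037 other genes averaging 1 TPM or more, over 12 libraries. The likeness rested largely on male cKO 3 and female cKO 3, where the members' mean was lowest. Without these libraries r was 0.69, 0.67 and 0.75.

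The wider AMPA receptor pathway was described with 4 further gene lists. Of 12 other auxiliary proteins, 11 were listed and tested, and 0 were called in both sexes (7 higher and 4 lower, median log2 fold change 0.02). The largest estimates were *Gsg1l*, a regulator that slows recovery from desensitization, at 0.18 (13.4 to 22.6 TPM in WT, 14.6 to 29.0 TPM in *Dek* cKO), and *Prrt2*, a mainly presynaptic protein also found with the receptor, at -0.18. *Cacng7*, TARP gamma-7, was near 0 in both sexes together (log2 fold change -0.01) but lay above the WT mean in female *Dek* cKO (57.1, 59.3 and 52.4 TPM against a WT mean of 51.0) and below it in male *Dek* cKO (48.6, 47.9 and 42.5 TPM against 51.8). The difference between the sexes was -0.30 on the log2 scale, with an unadjusted p = 0.00912 and an adjusted p = 0.966 in limma, so it was not called. Without the libraries of conflicting sex it was -0.39 (adjusted p = 0.268 in limma). It was named after its values were seen.

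Of 12 genes for receptor biogenesis and RNA editing, all were tested and 0 were called (7 higher, 5 lower, median 0.01). *Adarb1*, which encodes the editing enzyme of the *Gria2* codon shown above, was 67.3 ± 2.58 TPM in WT and 69.0 ± 6.89 TPM in *Dek* cKO (SD, n = 6), a log2 fold change of 0.03 with a 95% confidence interval of -0.10 to 0.16. *Adarb2*, a related protein without known editing activity, was at -0.15. The largest estimate of the lists was *Olfm2*, which encodes a secreted olfactomedin found in AMPA receptor complexes. Its log2 fold change was 0.86 (95% confidence interval 0.12 to 1.60, unadjusted p = 0.0256, adjusted p = 0.669 in limma). It was a low transcript at 0.585 to 2.90 TPM in WT and 2.27 to 3.71 TPM in *Dek* cKO, and the groups overlapped.

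Among 15 scaffold and trafficking genes 0 were called (9 higher, 6 lower, median 0.01). *Nptx2*, an activity-regulated pentraxin that clusters AMPA receptors, had a log2 fold change of 0.55 (95% confidence interval 0.04 to 1.05, unadjusted p = 0.0373, adjusted p = 0.712 in limma). In WT it ranged from 12.7 to 18.8 TPM with a median of 16.1 TPM, and in *Dek* cKO from 11.3 to 44.1 TPM with a median of 23.4 TPM. In females all 3 cKO libraries (21.2 to 24.4 TPM) were above all 3 WT libraries (16.8 to 18.8 TPM), while the highest value came from male cKO 3. In females 12% of all genes had no overlap in this sense, and the log2 fold change of *Nptx2* there was 0.38, or 0.34 without the libraries of conflicting sex (adjusted p = 0.950 and 0.893 in limma). *Grip2*, a PDZ scaffold that binds GluA2, was at 0.22.

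The 7 kainate and delta receptor subunits, the closest relatives of the AMPA receptor genes, gave 0 calls as well (3 higher, 4 lower, median -0.02). *Grik2*, the main kainate receptor subunit of hippocampal neurons, was at -0.30 (95% confidence interval -0.65 to 0.06), with 8.56 to 12.8 TPM in WT and 6.72 to 13.7 TPM in *Dek* cKO. In females it was 9.33 to 11.8 TPM in WT and 6.72 to 7.85 TPM in *Dek* cKO, without overlap, as for 12% of all genes (log2 fold change -0.53, adjusted p = 0.845 in limma). Without the libraries of conflicting sex it was -0.46 in females (adjusted p = 0.530 in limma). *Grik1* was at 0.13. Beside the 0 of 45 genes called in these 4 lists, 2 had an unadjusted p under 0.05, *Olfm2* and *Nptx2*. Over all genes 0.148% were called and 6.64% had such a p.

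**Figure D5:**
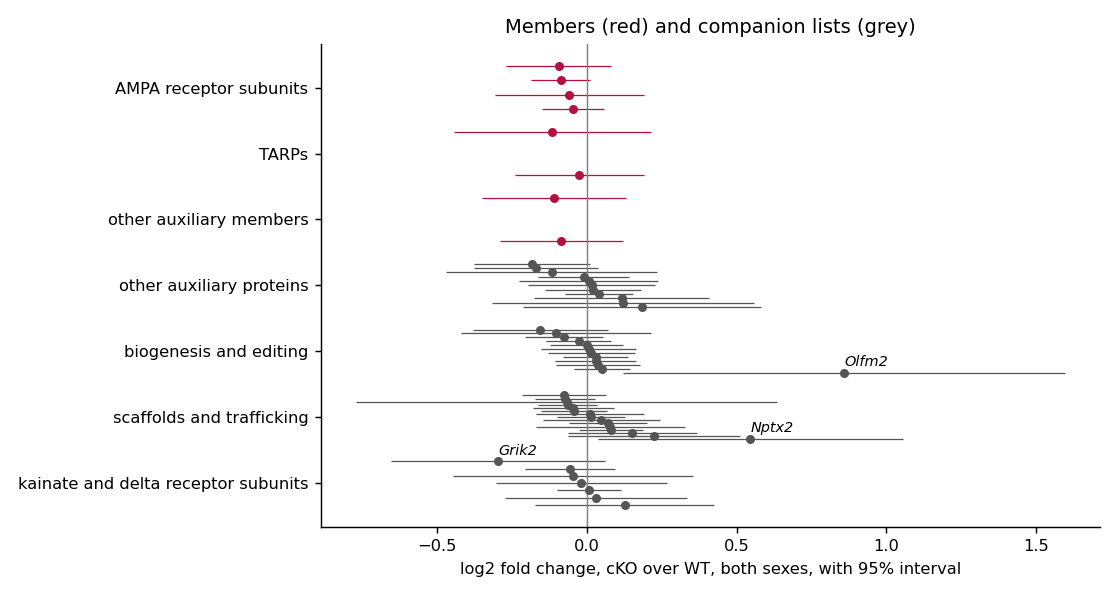
Log2 fold change of *Dek* cKO over WT in both sexes with 95% confidence intervals (x axis) for each tested gene, grouped by list (y axis); members are red and the 4 companion lists grey. All 8 members lie between -0.11 and -0.02, while *Olfm2* at 0.86 and *Nptx2* at 0.55 are the widest departures and are not called.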

How the data were processed

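The authors deposited 1 table of TPM with a column for each of the 12 libraries. The submitters' processing notes name kallisto and mm10, whereas the paper describes STAR alignment to GRCm38 and Salmon, and which of these wrote the table is not given in the sources used here. Read counts are not kept in TPM, so the paper's count-based test was not used. Columns were matched to samples by name and groups follow the labels. Genes averaging 0.1 TPM or more were analyzed as log2(TPM + 0.1) with limma (version 3.58.1, R 4.3.3) and a trended prior variance. The pseudocount understates fold changes of low genes. Both sexes were compared as 2 groups of 6 libraries, and other contrasts came from 1 fit of 4 groups. Steps were tested on simulated data. Sequences and coordinates are from GENCODE M21 (GRCm38). The members and gene lists were chosen with earlier results of these data known. Named genes were the members, *Dek*, every called gene of a list or otherwise its 2 largest estimates at 1 TPM or more, and the 3 genes most like the members. *Adarb1*, *Cacng7*, *Eif2s3y*, *Gfap* and the other single marker genes named were added after their values were seen. Alternatives changed the pseudocount, filter, scaling, prior variance, covariate or block, or left out libraries.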

Additional observations from a re-analysis of the deposited data

Results flagged for a closer look

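In *Gria1*, male WT 1 was set apart from the other WT libraries, at 307 TPM against 355 to 380.2 TPM. It was the single such value among 28 groups of 6 libraries examined with Dixon's test at its 95% critical value, which by chance marks about 1 group in 20.

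The genotype effect on subunit makeup differed between the sexes once the 2 libraries of conflicting sex were left out (exact permutation test, adjusted p from 0.02 to 0.04 over 6 measures). As the male minus the female difference between *Dek* cKO and WT, the *Gria1* share gave 9.62 percentage points, the *Gria2* share -4.91, the *Gria3* share -2.92 and the *Gria4* share -1.79. The log2 ratio of *Gria1* to *Gria2* gave 0.50 and that of summed TARPs to summed subunits -0.63. With all 12 libraries no measure passed (adjusted p of 0.0825 or higher). The test was chosen after the values were seen, the 6 measures share the same TPM values, and female cKO 1 and 2, on which the female side rests, also had the highest cortex marker scores (0.55 and 0.51). The part of those markers in the difference was not tested. Female WT libraries are named C57 and female *Dek* cKO libraries CMV, while all male libraries are named CMV. Naming and genotype thus cannot be told apart on the female side of this difference.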

How the results depend on the processing

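No member was called under any alternative, where the smallest adjusted p was 0.142. Of the members' log2 fold changes recomputed in limma, 828 kept their direction and 36 changed sign. The cause of the changes was not tested. Many of the 828 could not change. The filter, prior variance, covariate, block and fit by sex leave a difference of group means as it was. Leaving out a male library leaves estimates within females as they were, and the reverse. Depth cannot be recovered from TPM, so counting error is not known.

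Without the 2 libraries of conflicting sex, estimates with the opposite sign were *Gria4* 0.056 and *Cacng2* 0.016 in both sexes, *Cacng2* 0.14 in females, *Cnih2* -0.058 in males and *Cacng2* -0.25 for the sex difference. Without the 3 libraries named C57, *Cacng2* in both sexes was 0.049, and the *Dek* cKO minus WT difference was 0.709 percentage points for the *Gria1* share, -0.0783 for the *Gria3* share, 0.047 for the log2 *Gria1* to *Gria2* ratio and -0.018 for the TARP ratio. Rescaling by median ratios gave *Shisa9* in females -0.00870 and *Cnih2* in males -0.00483, and quantile normalization gave *Shisa9* in females -0.00493. Scaling moved the median of all genes by 0.03 or less.

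Leaving out 1 library at a time, log2 fold changes in both sexes ranged from -0.13 to 0.028 for *Gria4*, -0.094 to 0.031 for *Cacng2* and -0.21 to 7.46e-05 for *Cacng3*. In females they ranged from -0.028 to 0.058 for *Gria3*, -0.13 to 0.26 for *Gria4*, -0.17 to 0.14 for *Cacng2*, -0.038 to 0.35 for *Cacng3* and -0.075 to 0.077 for *Shisa9*. In males they ranged from -0.019 to 0.11 for *Gria1*, -0.11 to 0.086 for *Cacng2* and -0.058 to 0.10 for *Cnih2*. The sex difference ranged from -0.10 to 0.0034 for *Gria2* and -0.16 to 0.16 for *Cacng2*, and WT males against WT females from -0.059 to 0.033 for *Gria2* and -0.018 to 0.081 for *Gria4*. The *Dek* cKO minus WT difference ranged from -1.35 to 0.784 points for the *Gria1* share, -0.567 to 0.439 for *Gria2*, -0.17 to 0.612 for *Gria3* and -0.0947 to 0.458 for *Gria4*. It ranged from -0.062 to 0.047 for the log2 *Gria1* to *Gria2* ratio and from -0.093 to 0.089 for the TARP ratio.

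The sex differences in makeup passed 0.05 in the exact permutation test without both libraries of conflicting sex (9.62, -4.91, -2.92 and -1.79 points for the shares of *Gria1* to *Gria4*, 0.50 and -0.63 for the ratios) and without female cKO 3. Leaving out 1 library at a time they ranged from 4.97 to 9.35, -4.34 to -2.67, -3.18 to -1.32, -1.83 to -0.448, 0.28 to 0.47 and -0.60 to -0.14 in that order.

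Of all genes, 27 were called in both sexes. The number was 17 with no filter, 12 without the libraries of conflicting sex, 10 without those named C57 and 13 to 27 leaving out 1 library. Same-numbered libraries did not deviate together (correlations from -0.07 to 0.06), so numbers were not taken to pair samples. With a replicate block 3 genes and no member were called. In females the number went from 3 to 1 in a fit of the 6 female libraries or with the block, to 7 without a trended prior, to 6 without the libraries of conflicting sex and to 1 to 8 leaving out 1 library. In males it went from 3 to 6 in a fit of the 6 male libraries, with no filter, without a trend or without the libraries of conflicting sex, to 1 with the block and to as many as 7 leaving out 1 library. For the sex difference it went from 0 to 2 with no filter or no trend and to 3 without the libraries of conflicting sex, and for WT males against WT females from 0 to 3, 3 and 4 in that order, with as many as 5 leaving out 1 library.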
